A study of Homo sapiens with 12 samples.

Results

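Proteoglycans are core proteins that carry long sulfated sugar chains, and 10 core genes were followed in breast cancer cells with and without CD44, the hyaluronan receptor, which can itself carry such chains. The genes were the glypicans GPC1, GPC3, GPC4 and GPC6, the syndecans SDC2, SDC3 and SDC4, and HSPG2, VCAN and CSPG4. They are 10 of the 58381 genes counted, named by family and led by GPC4, which was chosen by its lower CPM in CD44 KO than in CD44 WT of both lines. The question asked of the others was whether another core was higher where GPC4 was lower. For GPC4 the change with CD44 is therefore given as a description and without a test. GPC3 had 1 count over all 12 libraries, so 9 of the 10 members passed the filter of more than 1 CPM (counts scaled to a common library size) in at least 2 libraries and entered the test, together with 15836 genes in all.

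RNA was sequenced from Hs578T and MDA-MB-231, both established triple negative breast cancer lines, the former from a primary tumor and the latter from a metastatic site. Each line carried a doxycycline-inducible Cas9, and guides to a pair of CD44 exons were transfected for the knockout, while control plates received the transfection reagent alone. Living cells with surface CD29 were sorted by CD44 into CD44 KO and CD44 WT populations, which are mixtures and not clones, and were starved in low serum before RNA was taken. The 4 groups were Hs578T CD44 WT, Hs578T CD44 KO, MDA-MB-231 CD44 WT and MDA-MB-231 CD44 KO, with 3 libraries each. Nothing states that the 3 libraries of a group were separate cultures, so p-values measure only the spread between these libraries, which may be technical.

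The libraries held 10257586 to 19725543 counts. CD44 itself was at 494 to 527 CPM in Hs578T CD44 WT and 24.9 to 28.6 CPM in CD44 KO, and at 359.6 to 363 and 30.02 to 40.3 CPM in MDA-MB-231, so the knockout labels held in all 12 libraries. Vimentin (VIM) was at 3730.3 CPM or more in every library, progesterone receptor (PGR) had 0 counts and estrogen receptor (ESR1) stayed at 1.15 CPM or less. ERBB2, the HER2 gene, was not absent, at 57.4 to 101 CPM over the 12 libraries, and the epithelial keratin KRT18 was at 357 to 745 CPM. The epithelial marker EPCAM was at 13.7 to 22.2 CPM in MDA-MB-231 and at most 0.0853 CPM in Hs578T. ITGB1, the CD29 used in the sort, was at 738 to 754 CPM in Hs578T CD44 WT and 847 to 940.05 CPM in CD44 KO, and at 409 to 696 and 888 to 909.8 CPM in MDA-MB-231. MDA-MB-231 CD44 WT replicate 1 held the lowest ITGB1 value and deviated most from its group over all genes tested, by 0.307 log2 units (root mean square) where the 12 libraries ranged from 0.184. Among markers of blood and endothelial cells, CD3E, CD14 and VWF were at 0.771 CPM or less in all libraries, CDH5 at 2.47 CPM or less, and PECAM1 at 10.6 to 14.8 CPM in Hs578T. PTPRC, the leukocyte antigen CD45, was at 0.254 to 0.576 CPM in Hs578T CD44 WT and at 3.21 to 4.81 CPM in CD44 KO. The part of these markers in the results was not tested. Values of single libraries are given in the order of their replicate numbers, and for MDA-MB-231 CD44 WT as replicate 1, replicate 3 and the library whose number the labels leave unclear.

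Glypicans are held in the outer membrane by a lipid anchor and syndecans by a membrane-spanning segment, and both present growth factors on heparan sulfate chains. Perlecan (HSPG2) is a heparan sulfate proteoglycan of basement membranes, versican (VCAN) a large chondroitin sulfate proteoglycan that binds hyaluronan in the matrix, and CSPG4, also called NG2, a membrane-spanning chondroitin sulfate proteoglycan. In breast tumors these cores are known from both the tumor cells and the matrix around them.

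The sequences just upstream of the starts of 5 members are shown, since these genes held the largest glypican levels or differed between CD44 WT and CD44 KO in opposite directions. Each line gives the 250 bases before the RefSeq start on GRCh38.p14, read 5′ to 3′ on the strand of the gene, with capitals marking matches on either strand to the GC box (GGGCGG or CCGCCC, overlapping matches joined). GPC4 lies on the minus strand with its window at chrX:133415490-133415739, GPC1 on the plus strand at chr2:240435413-240435662, GPC6 on the plus strand at chr13:93226557-93226806, SDC4 on the minus strand at chr20:45348425-45348674 and CSPG4 on the minus strand at chr15:75712849-75713098.
GPC4: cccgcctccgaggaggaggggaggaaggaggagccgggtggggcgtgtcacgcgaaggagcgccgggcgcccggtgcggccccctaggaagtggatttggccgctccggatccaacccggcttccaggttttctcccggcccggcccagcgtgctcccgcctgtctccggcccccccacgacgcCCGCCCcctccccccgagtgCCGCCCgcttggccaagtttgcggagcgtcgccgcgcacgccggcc
GPC1: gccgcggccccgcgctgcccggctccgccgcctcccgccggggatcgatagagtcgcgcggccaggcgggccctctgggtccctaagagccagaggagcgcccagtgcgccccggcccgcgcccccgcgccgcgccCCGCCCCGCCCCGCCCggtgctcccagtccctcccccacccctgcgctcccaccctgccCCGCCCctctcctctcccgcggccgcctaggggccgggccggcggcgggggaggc
GPC6: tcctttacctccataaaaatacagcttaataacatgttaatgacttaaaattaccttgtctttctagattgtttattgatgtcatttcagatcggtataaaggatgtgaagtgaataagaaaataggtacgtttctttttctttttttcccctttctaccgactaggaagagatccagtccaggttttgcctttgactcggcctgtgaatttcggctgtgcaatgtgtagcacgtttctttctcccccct
SDC4: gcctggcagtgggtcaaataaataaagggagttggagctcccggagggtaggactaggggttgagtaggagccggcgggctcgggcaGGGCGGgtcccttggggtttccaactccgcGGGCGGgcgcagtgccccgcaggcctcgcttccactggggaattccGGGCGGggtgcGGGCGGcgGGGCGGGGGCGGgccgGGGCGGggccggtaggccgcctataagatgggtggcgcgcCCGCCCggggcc
CSPG4: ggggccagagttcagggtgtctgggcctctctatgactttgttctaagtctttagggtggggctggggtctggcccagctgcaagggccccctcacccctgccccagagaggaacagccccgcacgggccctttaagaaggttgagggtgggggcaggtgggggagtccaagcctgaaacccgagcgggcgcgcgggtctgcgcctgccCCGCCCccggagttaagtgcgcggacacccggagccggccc

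These windows differed in base composition. GPC1 had 84.0% G and C with 36 CpG, GPC4 76.0% with 32, SDC4 73.6% with 26 and CSPG4 68.4% with 14, whereas GPC6 had 37.6% and 6 CpG. The median over 35116 promoter windows of the same length was 58.0% and 11 CpG. RefSeq windows were at hand for 8 of the 10 members, and a GC box was found in 7 of these 8 and in 42.6% of all windows. GPC6 was the member without one and the only member with the letters TATAAA, which 10.7% of all windows hold. The E box CACGTG and the AP-1 motif TGANTCA, held by 6.34% and 6.57% of all windows on either strand, were in none of the 8. The SDC4 window had 8 matches to the GC box, GPC1 had 4, GPC4 had 2 and CSPG4 had 1. These are matches of letters and not binding sites.

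GPC4, a glypican that binds growth factors of the FGF, BMP and Wnt families, was nearly lost without CD44. The gene (ENSG00000076716.8) lies on the minus strand of chromosome X of GRCh38, from 133300103 to 133415490. In Hs578T CD44 WT it was at 32.7, 17.7 and 9.48 CPM in the 3 libraries, and in CD44 KO at 0, 0 and 0.0853 CPM. In MDA-MB-231 CD44 WT it was at 13.1, 10.9 and 11.3 CPM, and in CD44 KO at 0.339, 0.636 and 0.296 CPM. The groups did not overlap in either line. In such bulk RNA, fewer cells that express a gene and less RNA per cell cannot be told apart. The Hs578T CD44 WT libraries spread over a wider range than those of MDA-MB-231, with replicate 1 highest and replicate 3 lowest.

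Behind these values stood 798 counts over the Hs578T CD44 WT libraries against 1 in CD44 KO, and 414 against 19 in MDA-MB-231. For Hs578T the ratio was 840 (95% counting interval 150 to 33218) and for MDA-MB-231 25.2 (15.96 to 42.4), where the intervals cover counting error only. The model gave Hs578T a log2 change of -9.19 and MDA-MB-231 one of -4.65. The former depends on a single count in CD44 KO, and without the library that held it the fitted change was -11.03. The choice of GPC4 used the CD44 WT libraries of both lines, so their levels are also given without a test. They were 19.9 ± 11.8 CPM in Hs578T and 11.8 ± 1.19 CPM in MDA-MB-231 (mean ± SD over the 3 CD44 WT libraries). The log2 difference between the unedited lines was 0.77 (standard error, SE, 0.31).

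**Figure D1:**
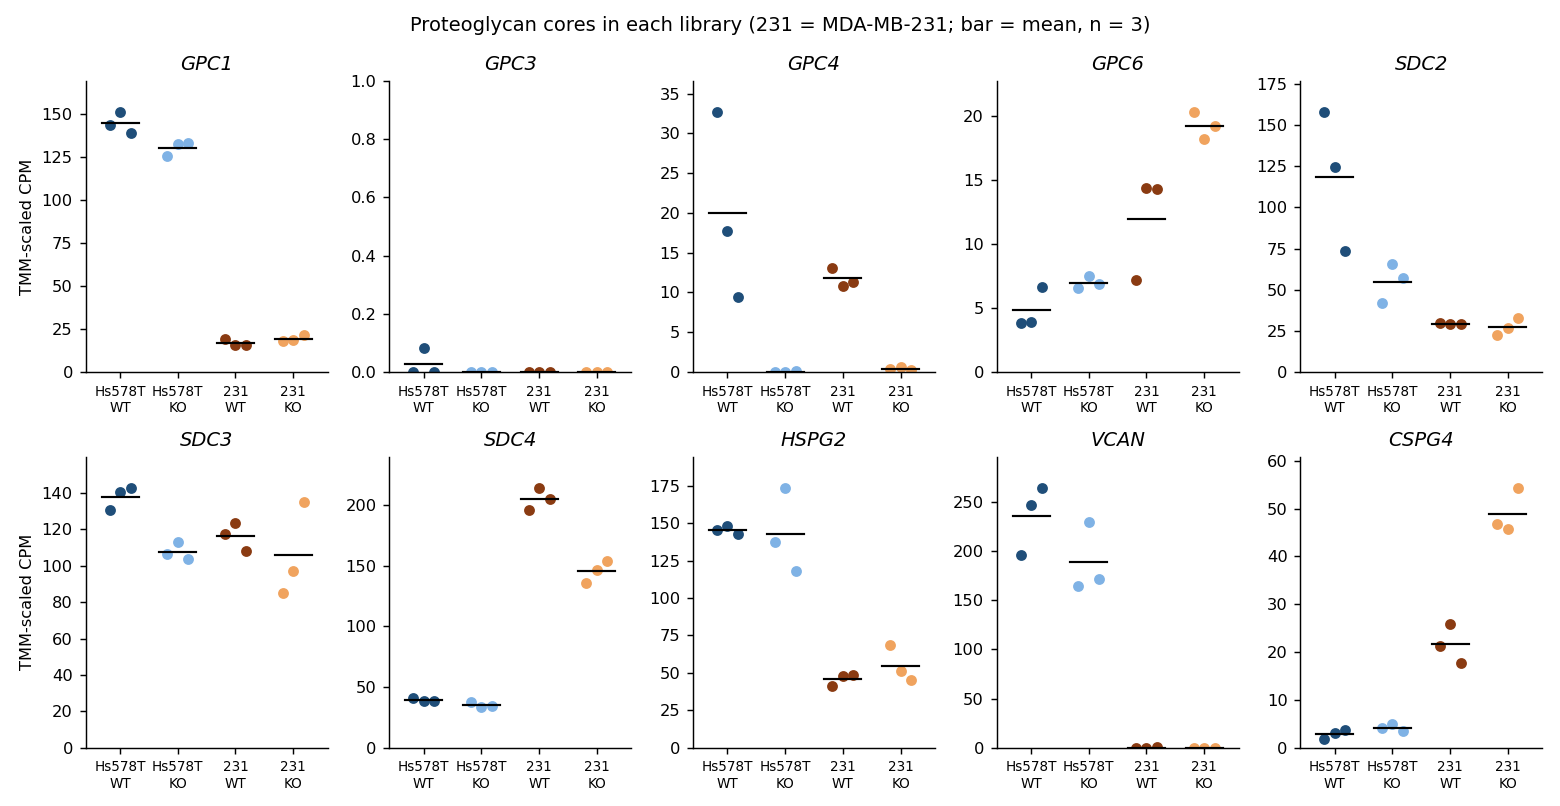
TMM-scaled CPM of the 10 members in each of the 12 libraries, with 1 panel per gene, its own linear axis from 0, 1 point per library and a bar at the mean of each group (n = 3). GPC4 is at 9.48 to 32.7 CPM in Hs578T CD44 WT and at most 0.0853 CPM in CD44 KO, while CSPG4 and SDC4 stand apart between CD44 WT and CD44 KO in MDA-MB-231 and SDC2 in Hs578T.

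GPC1, the most abundant glypican of Hs578T, is anchored like GPC4. It was at 144, 151 and 139 CPM in Hs578T CD44 WT and at 125, 133 and 133 CPM in CD44 KO. All 3 CD44 KO libraries lay below the CD44 WT libraries, yet the log2 change of -0.15 (SE 0.09) did not pass the threshold (edgeR adjusted p = 0.342). MDA-MB-231 had GPC1 at 19.2, 15.5 and 15.5 CPM in CD44 WT and at 17.9, 18.7 and 21.6 CPM in CD44 KO, and the groups overlapped (log2 change 0.21, SE 0.11, edgeR adjusted p = 0.271). Between the unedited lines GPC1 was 8.63-fold higher in Hs578T (log2 difference 3.11, SE 0.11, edgeR adjusted p = 1.48e-12).

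GPC6, a close relative of GPC4, had higher means in CD44 KO of both lines but did not pass the test. In MDA-MB-231 it was at 7.20, 14.4 and 14.3 CPM in CD44 WT and at 20.3, 18.3 and 19.3 CPM in CD44 KO. Every CD44 KO library was above every CD44 WT library, of which replicate 1 was far below the other 2. The log2 change was 0.68 (SE 0.23, edgeR adjusted p = 0.074). It was 0.42 without CD44 WT replicate 1, and among the alternatives run it passed only when no filter on low counts was used, at 0.70 with an edgeR adjusted p of 0.00184. In Hs578T GPC6 was at 3.81, 3.95 and 6.69 CPM in CD44 WT and at 6.58, 7.52 and 6.91 CPM in CD44 KO. Replicate 3 of CD44 WT lay within the CD44 KO range, and the log2 change of 0.55 (SE 0.26) did not pass (edgeR adjusted p = 0.183). GPC6 was 2.51-fold lower in unedited Hs578T than in unedited MDA-MB-231 (log2 difference -1.33, SE 0.25, edgeR adjusted p = 0.000224).

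The remaining glypicans contributed little. GPC3, the neighbour of GPC4 on chromosome X from 133535745 to 133985895, had its single count in Hs578T CD44 WT replicate 2. GPC5 had at most 4 counts in a library and was not tested, and GPC2 lay between 1.44 and 3.84 CPM in the Hs578T libraries and between 0.0847 and 0.795 CPM in the others.

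To ask how much glypican RNA was left, levels per length (CPM per kilobase of exon) were summed over all 6 glypican genes in each library. In Hs578T the sum was 27.7 ± 2.76 in CD44 WT and 22.0 ± 0.873 in CD44 KO (mean ± SD, n = 3). The MDA-MB-231 sum was 7.02 ± 0.0460 in CD44 WT and 6.25 ± 0.302 in CD44 KO. GPC4 made up 7.76% to 21.9% of the sum in the Hs578T CD44 WT libraries and 31.2% to 37.9% in those of MDA-MB-231, but at most 0.0764% and 2.11% in CD44 KO.

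Without GPC4, the glypican sum was lower in CD44 KO of Hs578T and higher in CD44 KO of MDA-MB-231. In Hs578T it was 23.6 ± 1.04 CPM per kilobase in CD44 WT and 22.0 ± 0.867 in CD44 KO, with 22.7 to 24.8 against 21.0 to 22.5 in the single libraries. The MDA-MB-231 sum was then 4.65 ± 0.273 in CD44 WT and 6.16 ± 0.325 in CD44 KO, with 4.33 to 4.82 against 5.95 to 6.54. The MDA-MB-231 mean of GPC4 was lower by 2.29 CPM per kilobase in CD44 KO than in CD44 WT, while the means of GPC6 and GPC1 were higher by 1.13 and 0.410. In Hs578T GPC4 was lower by 4.02 and GPC1 by 2.16 CPM per kilobase, and GPC6 was higher by 0.338. These sums are descriptions, and no p-value was computed for them.

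**Figure D2:**
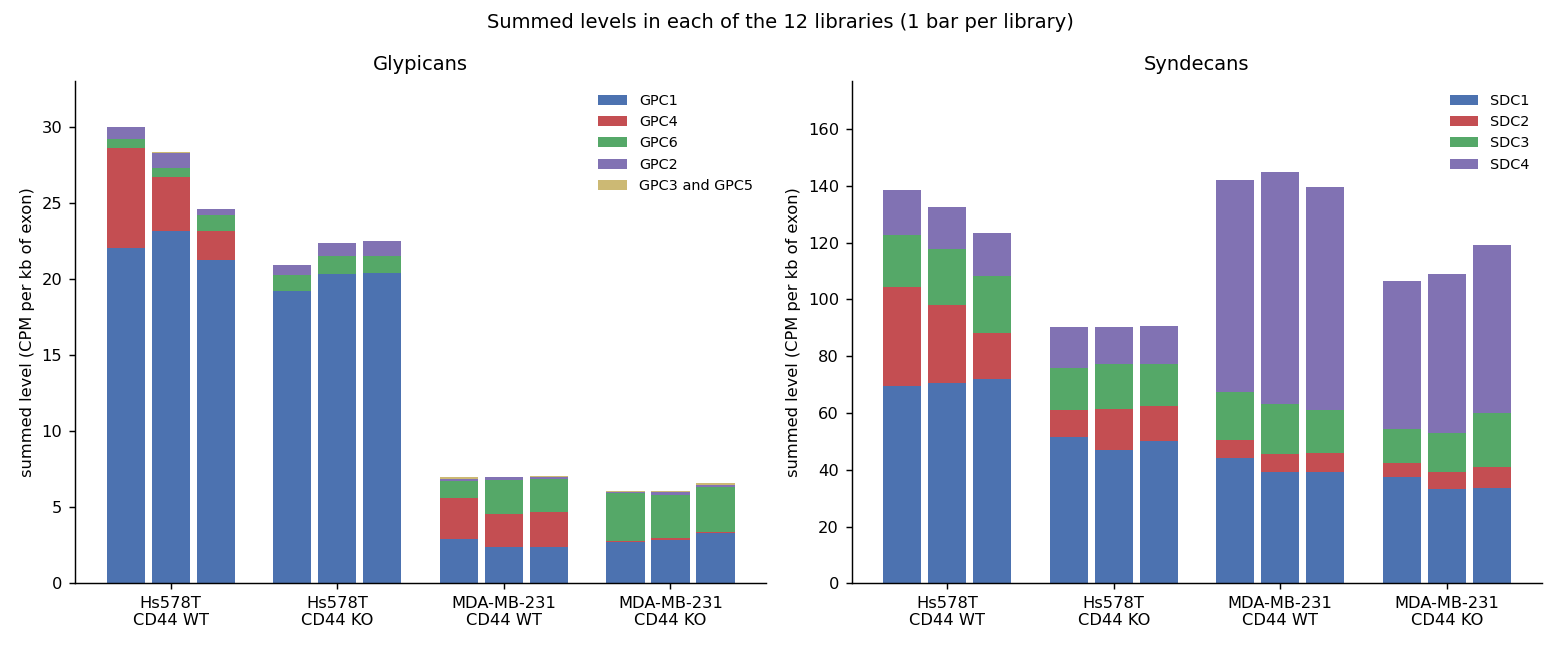
Stacked bars of the level per length (CPM per kilobase of exon, linear axis from 0) of the glypicans at left and the syndecans at right, 1 bar per library and 3 bars per group. GPC4 takes 31.2% to 37.9% of the glypican bar in MDA-MB-231 CD44 WT and at most 2.11% in CD44 KO, and the syndecan bars of CD44 KO are lower than those of CD44 WT in both lines.

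Syndecans signal together with integrins and growth factor receptors. SDC2 changed with CD44 in Hs578T. It was at 158, 124 and 73.7 CPM in CD44 WT and at 41.9, 65.8 and 57.1 CPM in CD44 KO. The groups did not overlap, but CD44 WT replicate 3 was close to the highest CD44 KO library. SDC2 fell 2.16-fold (log2 change -1.11, SE 0.22, edgeR adjusted p = 0.00297). This call was lost when Hs578T CD44 WT replicate 1 or 2 or CD44 KO replicate 1 or 3 was left out, with log2 changes of -0.85, -1.07, -0.95 and -1.12 and edgeR adjusted p-values of 0.0215, 0.0145, 0.02 and 0.0153. It was also lost with the replicate number as a block (-1.07, edgeR adjusted p = 0.015). In MDA-MB-231 SDC2 was at 29.7, 29.1 and 29.1 CPM in CD44 WT and at 22.3, 26.7 and 32.7 CPM in CD44 KO. Those groups overlapped (log2 change -0.11, SE 0.23, edgeR adjusted p = 0.84). The difference of the SDC2 changes between the lines, -0.998 on the log2 scale (SE 0.32), did not pass the threshold (edgeR adjusted p = 0.0591).

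SDC4, a syndecan of focal adhesions, changed in MDA-MB-231. It was at 196, 214 and 205 CPM in CD44 WT and at 135, 147 and 154 CPM in CD44 KO. The groups were clear of each other, and SDC4 fell 1.41-fold (log2 change -0.50, SE 0.08, edgeR adjusted p = 0.00109). The call held when any 1 of the 12 libraries was left out, with the edgeR adjusted p at most 0.00768. It was lost when MDA-MB-231 was fitted alone (log2 change -0.48, edgeR adjusted p = 0.0203) and with the replicate number as a block in 11 libraries (-0.50, edgeR adjusted p = 0.0231). In Hs578T SDC4 was at 41.1, 38.6 and 38.7 CPM in CD44 WT and at 37.6, 33.6 and 34.6 CPM in CD44 KO. These CD44 KO libraries were also below the CD44 WT libraries, with a log2 change of -0.16 (SE 0.09, edgeR adjusted p = 0.249). The difference between the lines was 0.33 (SE 0.12, edgeR adjusted p = 0.0892).

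SDC3 did not pass in either line, although its Hs578T change did when that line was fitted alone (log2 change -0.35, edgeR adjusted p = 0.00379). It was at 131, 140.4 and 143 CPM in Hs578T CD44 WT and at 107, 113 and 104 CPM in CD44 KO, without overlap (log2 change -0.36, SE 0.13, edgeR adjusted p = 0.083). In MDA-MB-231 it was at 118, 124 and 108 CPM in CD44 WT and at 85.2, 96.9 and 135 CPM in CD44 KO. Replicate 3 of CD44 KO was above all CD44 WT libraries and the other 2 were below them (log2 change -0.14, SE 0.13, edgeR adjusted p = 0.557).

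SDC1, the epithelial syndecan, was not among the 10 genes but completes the family. It was at 249, 253 and 259 CPM in Hs578T CD44 WT and at 186, 168 and 179.8 CPM in CD44 KO. With tight replicates and no overlap, it fell 1.43-fold (log2 change -0.51, SE 0.08, edgeR adjusted p = 0.000538), a call that held without any 1 of the libraries. SDC1 in MDA-MB-231 was at 158, 141 and 141 CPM in CD44 WT and at 135, 119 and 121 CPM in CD44 KO, again without overlap, but the log2 change of -0.23 (SE 0.08) did not pass (edgeR adjusted p = 0.0986).

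The summed level per length of the 4 syndecans was lower in CD44 KO in both lines. In Hs578T it was 131 ± 7.68 CPM per kilobase in CD44 WT and 90.4 ± 0.187 in CD44 KO, and in MDA-MB-231 142 ± 2.78 and 111 ± 6.71. The libraries of CD44 WT and CD44 KO did not overlap in either line. In Hs578T SDC1 was lower by 21.1 and SDC2 by 14.04 CPM per kilobase of the summed difference of 41.0. In MDA-MB-231 SDC4 was lower by 22.8 of 30.8.

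Among the matrix and chondroitin sulfate cores, HSPG2 overlapped between CD44 WT and CD44 KO in both lines. It was at 146, 148 and 143 CPM in Hs578T CD44 WT and at 137, 174 and 118 CPM in CD44 KO, a wider spread around nearly the same mean (log2 change -0.02, SE 0.14, edgeR adjusted p = 0.956). HSPG2 in MDA-MB-231 was at 41.4, 47.9 and 48.5 CPM in CD44 WT and at 68.4, 51.4 and 44.9 CPM in CD44 KO (log2 change 0.26, SE 0.15, edgeR adjusted p = 0.33). The approximate 95% intervals of these log2 changes, -0.30 to 0.26 and -0.04 to 0.56, leave room for a moderate change.

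VCAN was a gene of Hs578T. It was at 196, 246 and 264 CPM in CD44 WT and at 164, 230.03 and 171 CPM in CD44 KO. The 2 lowest values were from CD44 KO and the groups overlapped (log2 change -0.32, SE 0.14, edgeR adjusted p = 0.147). In MDA-MB-231 VCAN had 0 to 3 counts in a library, so no fold is given there.

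CSPG4 was the member that rose. In MDA-MB-231 it was at 21.2, 25.9 and 17.7 CPM in CD44 WT and at 46.8, 45.8 and 54.3 CPM in CD44 KO. The groups were far apart, and CSPG4 rose 2.26-fold (log2 change 1.18, SE 0.17, edgeR adjusted p = 0.000461). The call held without any 1 of the 12 libraries, with log2 changes from 1.05 to 1.33, and was lost with the replicate number as a block in 11 libraries (1.11, edgeR adjusted p = 0.0139). In Hs578T it was at 1.87, 3.04 and 3.81 CPM in CD44 WT and at 4.09, 4.99 and 3.41 CPM in CD44 KO. These levels were low and overlapped (log2 change 0.56, SE 0.25, edgeR adjusted p = 0.161). The difference between the lines, -0.62 on the log2 scale (SE 0.31), did not pass (edgeR adjusted p = 0.228).

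Over the 9 members tested, GPC4 included, 2 were called in Hs578T at an edgeR adjusted p of at most 0.01, both lower, where 7.51% of all genes tested were called (3.86% lower and 3.64% higher). In MDA-MB-231 3 were called, GPC4 and SDC4 lower and CSPG4 higher, where 4.62% of all genes were called (2.65% lower and 1.97% higher). The libraries of CD44 WT and CD44 KO did not overlap for 5 members in Hs578T, all lower in CD44 KO, against 37.3% of all genes in either direction and 18.6% lower. In MDA-MB-231 this was so for 4 members, 2 lower and 2 higher, against 25.5% of all genes (13.7% lower and 11.8% higher). The members had a median log2 change of -0.16 in the Hs578T comparison and -0.11 in the MDA-MB-231 comparison, beside -0.00162 and -0.01 over all genes. GPC4 enters these counts by choice, and nothing is read from them about the members as a set.

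No member passed the threshold for a change that differs between the lines, where 4.12% of all genes did (1.79% with the lower and 2.33% with the higher change in Hs578T). DESeq2 called none of the 8 tested members other than GPC4.

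**Figure D3:**
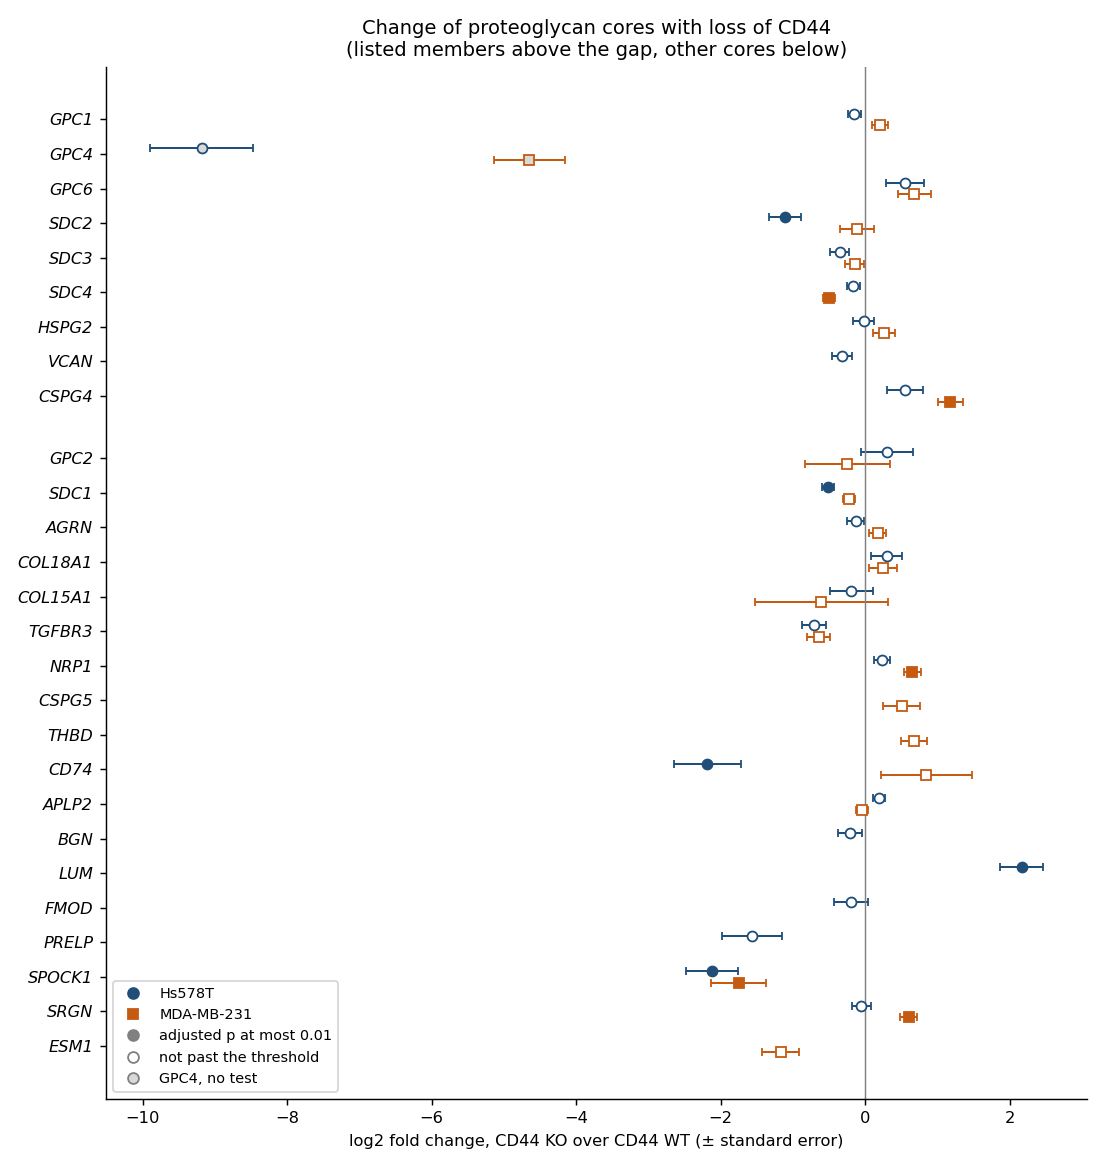
Fitted log2 change of CD44 KO over CD44 WT with its standard error for the tested members (above the gap) and the other tested cores (below), circles for Hs578T and squares for MDA-MB-231. Filled symbols passed an edgeR adjusted p of 0.01, open ones did not, GPC4 is in grey as it has no test, and genes with 20 counts or fewer in a line are not drawn there. The bar of GPC4 in Hs578T is narrower than its counting interval. CSPG4, NRP1 and SRGN in MDA-MB-231 and LUM in Hs578T are the filled symbols to the right of 0.

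The cores were also compared between the unedited lines. Of the 9 members tested, 7 were called between Hs578T CD44 WT and MDA-MB-231 CD44 WT, 3 lower and 4 higher in Hs578T, where 61.5% of all genes were called (29.4% lower and 32.2% higher), and nothing is read from this count about the members. GPC1, SDC2, HSPG2 and VCAN were higher in Hs578T, and GPC6, SDC4 and CSPG4 were higher in MDA-MB-231. SDC2 was 4.05-fold higher in Hs578T (log2 difference 2.02, SE 0.23, edgeR adjusted p = 1.16e-06), HSPG2 3.17-fold higher (1.66, SE 0.15, edgeR adjusted p = 9.79e-08) and VCAN was at 236 ± 35.3 CPM against 0.172 ± 0.0912 CPM (edgeR adjusted p = 1.67e-13). SDC4 was 5.19-fold lower in Hs578T (-2.38, SE 0.09, edgeR adjusted p = 2.96e-12) and CSPG4 7.52-fold lower (-2.91, SE 0.22, edgeR adjusted p = 1.06e-08). SDC3 was the member nearest to equal (0.24, SE 0.13, edgeR adjusted p = 0.104).

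Per length, the order of levels was therefore not shared. In Hs578T CD44 WT, SDC2 led at 26.2 CPM per kilobase, followed by GPC1 at 22.2, SDC3 at 19.5, VCAN at 15.9, SDC4 at 15.1, HSPG2 at 8.03, GPC4 at 4.02, GPC6 at 0.745 and CSPG4 at 0.351. SDC2 and GPC1 overlapped in this group, as did VCAN and SDC4. In MDA-MB-231 CD44 WT, SDC4 led at 78.4, followed by SDC3 at 16.5, SDC2 at 6.47, CSPG4 at 2.60, GPC1 at 2.57, HSPG2 at 2.54, GPC4 at 2.37 and GPC6 at 1.85. The libraries of each neighbouring pair from CSPG4 to GPC6 overlapped, so no order is read among these 5.

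In CD44 KO the order changed in few places. In Hs578T CD44 KO, GPC1 led at 20.001 CPM per kilobase, and SDC2, at 12.1, came behind SDC3 at 15.3, SDC4 at 13.5 and VCAN at 12.7, although the libraries of SDC4 and VCAN overlapped, as did those of VCAN and SDC2 and of SDC2 and HSPG2. In MDA-MB-231 CD44 KO, CSPG4 at 5.90 overlapped with SDC2 at 6.001, while GPC6 at 2.98 stood beside GPC1 at 2.98 and HSPG2 at 3.03. GPC4 was at 0.00573 in Hs578T CD44 KO and 0.0854 in MDA-MB-231 CD44 KO.

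Whether a core outside the 10 was higher without CD44 was read from a list of 31 further proteoglycan genes, of which 18 passed the filter and 13, such as GPC5, ACAN and DCN, did not. In Hs578T 4 of these 18 were called, 3 lower and 1 higher, where 7.51% of all genes were called, and in MDA-MB-231 3, 1 lower and 2 higher, where 4.62% were. Their median log2 change was -0.09 and -0.13, beside -0.00162 and -0.01 over all genes. None of the 18 passed for a difference between the lines, where 4.12% of all genes did. CD74, counted among the 3 lower in Hs578T, passed the filter only through Hs578T CD44 WT.

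SPOCK1, a secreted testican, was called lower in both lines. It was at 81.0, 49.5 and 25.2 CPM in Hs578T CD44 WT and at 16.3, 10.05 and 9.72 CPM in CD44 KO, with the CD44 WT libraries in the same order as for GPC4 and SDC2. The log2 change was -2.12 (SE 0.36, edgeR adjusted p = 0.000919). SPOCK1 in MDA-MB-231 was at 15.3, 32.7 and 33.4 CPM in CD44 WT and at 7.20, 7.89 and 9.18 CPM in CD44 KO, where replicate 1 was the low one of CD44 WT (log2 change -1.75, SE 0.38, edgeR adjusted p = 0.00774). The MDA-MB-231 call was lost when any MDA-MB-231 library but CD44 WT replicate 1 was left out, and without Hs578T CD44 WT replicate 2 or CD44 KO replicate 2 or 3, with log2 changes from -1.83 to -1.58 and the edgeR adjusted p up to 0.0398.

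In Hs578T the other called cores were SDC1, given above, CD74 and LUM. CD74 is the invariant chain of MHC class II, of which some forms carry chondroitin sulfate. It was at 2.15, 2.14 and 0.846 CPM in CD44 WT and at 0.321, 0.37 and 0.426 CPM in CD44 KO (log2 change -2.19, SE 0.46). This low gene passed the filter only through Hs578T CD44 WT replicates 1 and 2, which favours a lower CD44 KO, so its call is not read. It entered 10 of the fits that leave out 1 library, and the call was lost without CD44 KO replicate 1, 2 or 3. Lumican (LUM), a keratan sulfate proteoglycan that binds collagen, rose from 3.19, 1.89 and 2.37 CPM to 9.63, 15.6 and 8.36 CPM, without overlap (log2 change 2.17, SE 0.29, edgeR adjusted p = 0.000527). It had 0 counts in all MDA-MB-231 libraries.

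In MDA-MB-231 the called cores that rose were NRP1 and SRGN. Neuropilin 1 (NRP1), a coreceptor that can bear a sugar chain, was at 135, 187 and 176 CPM in CD44 WT and at 234, 268 and 282 CPM in CD44 KO (log2 change 0.65, SE 0.11, edgeR adjusted p = 0.00185). Its call was lost narrowly without CD44 KO replicate 2 or 3 (edgeR adjusted p = 0.0116 and 0.0101), and when the line was fitted alone (0.0227). Serglycin (SRGN), a proteoglycan of secretory granules, was at 174, 179 and 199 CPM in CD44 WT and at 335, 273 and 228 CPM in CD44 KO (log2 change 0.60, SE 0.12, edgeR adjusted p = 0.00582). The groups did not overlap, and the call was lost without MDA-MB-231 CD44 WT replicate 1 or 3 or CD44 KO replicate 1 or 2 (edgeR adjusted p from 0.0154 to 0.0273), and was missed narrowly, at 0.01, without Hs578T CD44 KO replicate 1.

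TGFBR3, the TGF-beta coreceptor betaglycan, narrowly missed the threshold in both lines. It was at 25.6, 24.8 and 23.2 CPM in Hs578T CD44 WT and at 14.3, 13.7 and 17.4 CPM in CD44 KO (log2 change -0.70, SE 0.17, edgeR adjusted p = 0.0101). In MDA-MB-231 it was at 33.3, 57.3 and 49.98 CPM in CD44 WT and at 29.7, 28.8 and 31.5 CPM in CD44 KO (log2 change -0.65, SE 0.16, edgeR adjusted p = 0.0163). All CD44 KO libraries were below all CD44 WT libraries in both lines, and DESeq2 called both changes.

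Per length, SRGN was the highest of these other cores, with 151 CPM per kilobase in MDA-MB-231 CD44 WT, and PRELP the lowest of those tested. The summed level of all 41 cores, members included, was 367 ± 28.2 CPM per kilobase in Hs578T CD44 WT and 312 ± 14.4 in CD44 KO. In MDA-MB-231 this sum was 514 ± 22.1 in CD44 WT and 572 ± 22.2 in CD44 KO. For the 10 members alone it was 112 ± 9.32 and 83.1 ± 6.62 in Hs578T, and 113 ± 4.55 and 91.6 ± 8.36 in MDA-MB-231, lower in CD44 KO in both lines. The full sum of MDA-MB-231 was thus higher in CD44 KO, where SRGN, outside the members, was 151 CPM per kilobase in CD44 WT and 228 in CD44 KO.

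Enzymes that trim or shed proteoglycans, with adaptors and link proteins, were read from a list of 17 genes, of which 15 were tested. In Hs578T 3 were called, 1 lower and 2 higher, beside 7.51% of all genes, and in MDA-MB-231 1 was called lower, a share near the 4.62% of all genes. Their median log2 change was -0.19 and -0.16. SULF2 and ADAMTS5, counted among the 3 in Hs578T, passed the filter only through the Hs578T group where they were high. No test is therefore read for SULF2 or ADAMTS5. SULF2, which removes sulfate from heparan sulfate chains at the cell surface, was at 8.18, 10.4 and 3.64 CPM in Hs578T CD44 WT and at 0.241, 0.617 and 0.256 CPM in CD44 KO. These were 287 against 16 counts, a ratio of 18.9 (95% counting interval 11.4 to 33.5) and a log2 change of -4.21 (SE 0.46).

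The matrix proteases ADAMTS1 and ADAMTS5, which cut versican and aggrecan, rose in Hs578T CD44 KO. ADAMTS1 went from 0.485, 0.576 and 1.52 CPM to 5.86, 10.5 and 8.27 CPM (log2 change 3.30, SE 0.34, edgeR adjusted p = 1.17e-05). ADAMTS5, for which no test is read, went from 0.416, 0.0823 and 0.0846 CPM to 5.54, 4.56 and 4.69 CPM (log2 change 4.51, SE 0.46). Both were low in Hs578T CD44 WT. In MDA-MB-231 ADAMTS1 was abundant, at 191, 215 and 193 CPM in CD44 WT and at 153, 117 and 104 CPM in CD44 KO (log2 change -0.68, SE 0.17, edgeR adjusted p = 0.0198), and its change differed between the lines by 3.98 (SE 0.38, edgeR adjusted p = 1.16e-05).

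ADAM17, a protease that sheds syndecans and other membrane proteins, fell in MDA-MB-231 from 77.0, 94.2 and 105 CPM to 52.9, 68.1 and 64.6 CPM (log2 change -0.57, SE 0.12, edgeR adjusted p = 0.00547). The groups did not overlap. The call was lost without any MDA-MB-231 library but CD44 WT replicate 1, and without Hs578T CD44 WT replicate 2 or CD44 KO replicate 3 (edgeR adjusted p from 0.0101 to 0.0266). SDCBP, the syndecan adaptor syntenin, had the highest level per length of this list and passed in neither line (edgeR adjusted p = 0.129 in Hs578T and 0.882 in MDA-MB-231). HAPLN1, a link protein, had the lowest.

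Genes whose start lay within 1000 kilobases of that of GPC4 were compared next. Besides GPC4, 3 of them were tested: MBNL3, HS6ST2 and RPS24P19. HS6ST2, on the minus strand from 132626016 to 132961395 of chromosome X, encodes a sulfotransferase that adds sulfate to heparan sulfate chains. It was at 16.4, 15.2 and 16.4 CPM in MDA-MB-231 CD44 WT and at 1.36, 1.11 and 0.593 CPM in CD44 KO. All CD44 KO libraries were low, and the log2 change was -3.92 (SE 0.26, edgeR adjusted p = 2.37e-07), with 562 counts against 43 and a ratio of 15.1 (95% counting interval 11.1 to 21.2). In Hs578T its counts were 11 over CD44 WT against 1 over CD44 KO, and the ratio of 11.6 (1.68 to 498) did not pass (edgeR adjusted p = 0.0283).

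MBNL3, a regulator of RNA splicing from 132369317 to 132489968, went the other way in Hs578T. It was at 0.902, 0.494 and 0.423 CPM in CD44 WT and at 2.41, 2.96 and 2.73 CPM in CD44 KO (log2 change 2.11, SE 0.31, edgeR adjusted p = 0.000258). MDA-MB-231 had MBNL3 at 12.7, 14.5 and 16.4 CPM in CD44 WT and at 20.6, 15.7 and 14.02 CPM in CD44 KO (log2 change 0.21, SE 0.17, edgeR adjusted p = 0.525). RPS24P19, a ribosomal pseudogene whose reads could come from related copies, had log2 changes of 0.13 and 0.19 that did not pass (edgeR adjusted p = 0.872 and 0.751).

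The genes whose pattern over the 12 libraries was most like that of GPC4 were found by the root mean square difference of log2 CPM, after each gene was centred on its mean. CD44 itself was nearest at 1.08, followed by FGF13 at 1.48, DOCK8 at 1.55, CSF2RA at 1.601 and MISP at 1.68. FGF13, an intracellular FGF homologue, was at 11.9, 8.23 and 4.23 CPM in Hs578T CD44 WT and 0.0617 to 0.171 CPM in CD44 KO, while MDA-MB-231 had 4.03 to 6.50 CPM in CD44 WT and 2.28 to 3.26 CPM in CD44 KO. DOCK8, a guanine nucleotide exchange factor, was at 15.1, 10.7 and 6.26 CPM in Hs578T CD44 WT, at most 0.247 CPM in CD44 KO, while MDA-MB-231 had 0.857 to 0.973 CPM in CD44 WT and at most 0.053 CPM in CD44 KO. These 4 genes beside CD44 were picked for their likeness over these libraries, so their changes are given without a test. For FGF13, DOCK8 and GPC4 alike, Hs578T CD44 WT replicate 1 was the highest and replicate 3 the lowest of their group. The choice by likeness over these same libraries favours such a shared order, so it is a description only.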

How the data were processed

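Counts per gene were deposited by the authors, without normalization, for 12 TruSeq stranded mRNA libraries. HISAT2 (version 2.1.0) was the authors' aligner, with GRCh38 as genome, and featureCounts (version 1.6.2) assigned read pairs by strand to GENCODE version 28, at a mapping quality of at least 10 and without fragments that mapped to several places or genes, so reads of near-identical copies are missing. Total counts of 10257586 to 19725543 per library limit weakly expressed genes. Of 58381 genes, the 15836 above 1 CPM in 2 or more libraries with at least 300 nt of exon were fitted with R 4.3.3 and edgeR 4.0.16 (TMM factors, 4 group means, quasi-likelihood test, legacy fit). The study's methods word the length filter as under 300 nt. P-values were Benjamini-Hochberg adjusted over all genes tested, and a call was an adjusted p of at most 0.01. Standard errors were derived from the F statistic, and 95% intervals of log2 changes from them by a normal approximation. With so few libraries these intervals are somewhat too narrow.

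The members, the gene lists and the rule for named genes (all members, called genes of each list, the highest and lowest per length, and the 5 most like GPC4) were chosen with earlier results of these data known. TGFBR3, GPC2, GPC5, ACAN and DCN, outside that rule, were named after their values were seen. Counting intervals were exact and cover counting error only. The column name of one MDA-MB-231 CD44 WT library stands in the labels of replicates 2 and 3, so it was used by its group, and as replicate 2 only in an alternative added after seeing the data. Promoter windows came from RefSeq. One listed cell type marker is not reported here. The fit was tested on simulated data. Alternatives were DESeq2 1.42.0, RLE factors, library size only, no filter on low counts, each line alone, an adjusted p of 0.05, a replicate block, and each library left out.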

Additional observations from a re-analysis of the deposited data

Results flagged for a closer look

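Changes that differed between the lines by the test of the difference (edgeR adjusted p of at most 0.01) stood out for ADAMTS1, MBNL3 and CD44, and for none of the proteoglycan cores. PTPRC was flagged as well, but it passed the filter only through Hs578T CD44 KO, where it was high, so no test is read for it. FGF13, DOCK8, CSF2RA and MISP were picked by their likeness to GPC4 over these libraries, and no test is read for them. The log2 change of ADAMTS1 in Hs578T minus that in MDA-MB-231 was 3.98 (SE 0.38, edgeR adjusted p = 1.16e-05), with all 3 Hs578T CD44 KO libraries above and all 3 MDA-MB-231 CD44 KO libraries below their CD44 WT libraries. That of MBNL3, near GPC4, was 1.90 (SE 0.36, edgeR adjusted p = 0.00341). That of PTPRC was 5.66 (SE 0.92), with 3 to 7 counts in the Hs578T CD44 WT libraries and 39 to 60 in CD44 KO. Its MDA-MB-231 part, a log2 change of -2.32, rests on only 10 counts over CD44 WT and 2 over CD44 KO. The difference for CD44 was -0.81 (SE 0.14, edgeR adjusted p = 0.00198), with CD44 KO lower in both lines. The groups hold 3 libraries each, too few for a test of single outlying libraries.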

How the results depend on the processing

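RLE factors and library size only changed no count of calls by more than 1.5 times, and no scaling moved the median log2 change of all genes by more than 0.1. Direction held for the members in all alternatives, except SDC2 in MDA-MB-231, at 0.00907 without CD44 KO replicate 1 (range -0.24 to 0.00907 over the 12 fits that leave out 1 library), and HSPG2 in Hs578T, at 0.00784 without CD44 KO replicate 1 and 0.11 without replicate 3 (range -0.19 to 0.11). Among the other cores, SRGN in Hs578T was at 0.0126 without CD44 WT replicate 3 and 0.039 without CD44 KO replicate 3 (range -0.12 to 0.039). These changes were near 0, and none was called.

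Same-numbered libraries did not deviate together in Hs578T (correlations of -0.06, 0.02 and -0.10), and gave 0.01 and 0.16 in MDA-MB-231. Libraries were also paired by sets of 4 consecutive label numbers, which hold 1 library of each group. This gave 0.03, 0.10 and 0.13 in Hs578T and 0.10, 0.16 and 0.01 in MDA-MB-231. All of these were positive, while CD44 WT and CD44 KO libraries of different sets gave -0.17 to 0.09. Whether the sets share an effect was not tested, and the main fit used neither numbering as a pairing. With the replicate number as a block, in 11 libraries, 1 member was counted in Hs578T and 1 in MDA-MB-231, GPC4 in both, so SDC2, SDC4 and CSPG4 lost their calls, and 1 other core (NRP1) and 0 handling genes were called in MDA-MB-231. With the unclear library taken as replicate 2 in the same block, chosen after seeing the data, SDC4 and CSPG4 were called among 3 members in MDA-MB-231, and SDC2 was not called in Hs578T (-1.07, edgeR adjusted p = 0.0114), which left 1 member there. With sets of consecutive label numbers as a replicate block, SDC2, SDC4 and CSPG4 were all called (edgeR adjusted p = 0.00043, 0.00126 and 0.000481), and 5 other cores in MDA-MB-231.

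GPC4 enters every count of members by choice, so its place in them is no result. Members whose change differed between the lines numbered 1 with DESeq2, GPC4 alone, and 2 without a filter on low counts, of which SDC2 was the one beside GPC4. Other cores called in MDA-MB-231 numbered 6 with DESeq2, 6 without the filter, 6 at an adjusted p of 0.05 and 1 with each line alone. Handling genes numbered 5 in Hs578T at 0.05, and in MDA-MB-231 2 with DESeq2, 3 without the filter, 3 at 0.05 and 0 with each line alone. For the alternatives, the blocks and the fits that leave out 1 library, the share of all genes called is not given here. Nothing is therefore read from these counts about the lists. The causes were not tested.

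Leaving out 1 library at a time gave 1 to 2 called members in Hs578T, 3 to 3 in MDA-MB-231, 0 to 2 for the difference between the lines (2 without Hs578T CD44 WT replicate 3) and 7 to 8 between the unedited lines. It gave 3 to 5 other cores in Hs578T and 0 to 4 in MDA-MB-231 (0 without CD44 KO replicate 2, and 1 without CD44 WT replicate 3 or CD44 KO replicate 3), and 3 to 4 and 0 to 1 handling genes.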
